A study of Mus musculus with 8 samples.

Results

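Bcl6, Prdm1, Id2, Id3, Maf, Cxcr5, Sh2d1a, Slamf6 and Tox are genes of the follicular regulatory T (Tfr) cell programme. They were taken by symbol as 9 of the 52459 genes listed, and all 9 were among the 15419 genes that averaged at least 10 normalized counts and were tested. Their RNA was measured in 8 libraries of mouse regulatory T (Treg) cells, 2 for each of 4 groups. Treg cells sorted as CD4+CD25hi came from pooled spleens and lymph nodes of several healthy C57BL/6 females that were heterozygous for Foxp3-YFPcre, all of them carrying floxed Stim1 and Stim2. Cre is driven by the Foxp3 promoter on the X chromosome, so that YFPcre+ cells, labelled Stim1/2-deficient, and YFPcre- cells, labelled WT, arise in the same animals. Both kinds of cells were either left unstimulated or kept for 16 h on plates coated with anti-CD3/CD28 at 1 µg/ml. The age is not given in the sources used here. Because WT cells did not express the Foxp3-YFPcre allele, an effect of this allele cannot be told apart from that of the Stim1/2 deletion, and both genotypes shared a lane within each state whereas stimulation and sequencing lane cannot be told apart.

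STIM1 and STIM2 sense the filling of the calcium store of the endoplasmic reticulum and open the calcium channel ORAI1, which activates NFAT. Tfr cells are Treg cells that enter B cell follicles and restrain the germinal centre reaction. Bcl6 and Blimp-1, the product of Prdm1, repress each other's genes, and Id2 and Id3 hold back the E proteins that drive Cxcr5. The study describes Tfr cells as expressing both Bcl6 and Blimp-1. Maf and Tox are further transcription factors of follicular T cells, the chemokine receptor CXCR5 brings cells into the follicle, and SAP, the product of Sh2d1a, connects SLAM receptors such as Slamf6 (Ly108) to kinases when T cells contact B cells.

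The promoters of Prdm1 and Bcl6 are shown because these antagonists changed most with genotype and with stimulation, respectively. Bcl6 was added after its values had been seen. RefSeq promoter entries matched Slamf6, Id3, Prdm1, Id2 and Bcl6, and not Maf, Cxcr5, Sh2d1a and Tox. Each window holds the 250 bases before a RefSeq start on GRCm38.p6, is printed 5′ to 3′ on the strand of the gene, and has in capitals every match on either strand to GGAAA, the core of NFAT sites, or TGANTCA, an AP-1 site. The Prdm1 window and that of the second Bcl6 start lie inside the gene spans given below, each before an internal start.
Prdm1, chr10:44458749-44458998, minus strand: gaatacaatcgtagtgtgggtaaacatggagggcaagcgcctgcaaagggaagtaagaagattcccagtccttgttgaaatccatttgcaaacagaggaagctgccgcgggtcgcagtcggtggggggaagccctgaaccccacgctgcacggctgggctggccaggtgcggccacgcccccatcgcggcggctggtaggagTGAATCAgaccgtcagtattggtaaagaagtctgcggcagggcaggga
Bcl6, first start, chr16:23988853-23989102, minus strand: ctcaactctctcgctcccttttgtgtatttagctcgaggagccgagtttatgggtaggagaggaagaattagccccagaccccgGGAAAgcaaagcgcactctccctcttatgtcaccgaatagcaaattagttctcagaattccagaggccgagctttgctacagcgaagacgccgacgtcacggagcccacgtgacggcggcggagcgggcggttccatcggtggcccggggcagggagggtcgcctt
Bcl6, second start, chr16:23981284-23981533, minus strand: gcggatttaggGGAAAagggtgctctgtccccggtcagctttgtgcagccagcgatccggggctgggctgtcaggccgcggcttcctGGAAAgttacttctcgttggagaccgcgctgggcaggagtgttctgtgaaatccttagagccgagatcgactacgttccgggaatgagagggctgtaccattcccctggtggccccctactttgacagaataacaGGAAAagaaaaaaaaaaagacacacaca
The Prdm1 window had 1 AP-1 match and none to the NFAT core. The Bcl6 windows had 1 and 3 NFAT core matches and none to AP-1. The NFAT core occurred in 55.6% and the AP-1 motif in 6.75% of 32851 windows of this length. The E-box CANNTG, found in 66.2% of the windows, matched 2 times in the Prdm1 window and 1 time before the first start of Bcl6. Neither GTGAAAG, a Blimp-1 site, nor TTCCTAG, a Bcl6 site, was found in the windows of either gene, and no matches overlapped. A match describes letters and not binding.

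Gene counts had been divided by the authors by a size factor for each library, and such values are called normalized counts. Libraries held 11851853 to 16306540 reads on genes, 1 read was worth 0.759 to 1.48 normalized counts, and the members had 49 to 4076 reads per library. Differences were tested with limma on log2(normalized count + 1) in 1 model of all 8 libraries, with the Benjamini-Hochberg adjustment over all tested genes. Genes that reached an adjusted p under 0.05 and also differed by over 1.5-fold were called. Since every library was made from pooled mice, p-values measure the spread between libraries and not between single mice. Whether libraries shared a pool is not given in the sources used here. In bulk RNA, fewer cells of a kind and less RNA per cell cannot be told apart. Stim1 had 1139 and 1377 normalized counts in unstimulated WT and 1538 and 1868 in labelled libraries (log2 fold change 0.44, limma adjusted p = 0.236). After stimulation it had 645 and 673 against 552 and 642. Stim2 was not called either. A loss of floxed exons could not be seen in counts of whole genes, so libraries are named by their label. By RT-PCR, the study reports that Treg cells of males had lost Stim1 and Stim2 expression. For heterozygous females it reports that store-operated calcium entry was lacking in YFP+ Treg cells, compared with YFP- Treg cells.

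All 7 Treg cell markers, Foxp3 among them, were above 3 reads in every library. Their sum was 93410 and 86910 normalized counts in WT and 41190 and 48900 in labelled unstimulated libraries, and 95720 and 113700 against 69060 and 86910 after stimulation. In unstimulated cells Ctla4 and Ikzf2 were called lower in labelled libraries (log2 fold changes -1.79 and -1.13), 2 of the 7 beside 3.35% of all tested genes. Foxp3, Il2ra, Cd3d, Cd4 and Cd3e were not called (-0.98, -0.65, -0.36, -0.20 and -0.12). The sum alone thus does not give a share of Treg cells. Labelled replicate 1 of the unstimulated cells stood apart. Its 13 myeloid markers, all above 3 reads, summed to 10710 normalized counts, against 1738 in labelled replicate 2 and 454 and 473 in the WT libraries, where C1qa and C1qc were at 0. Its 16 B cell markers summed to 17640 normalized counts, against 4732 to 7039 in the other unstimulated libraries. The plasma cell sum was also highest there (2096 normalized counts), against 677 in labelled replicate 2 and 296 and 353 in WT. Labelled replicate 2 thus exceeded both WT libraries for the myeloid and plasma cell sums. Most of the plasma cell sum in labelled libraries was Jchain (1784 and 471 normalized counts, against 38.9 and 72.4 in WT). In labelled replicate 2, Mzb1 and Tnfrsf17 were also higher than in both WT libraries, but Sdc1, Txndc5 and Derl3 were lower. The B cell sum of labelled replicate 2 was lower than in both WT libraries (4732 against 7039 and 6161). Of 12 tested myeloid markers, 8 were called higher in labelled libraries. This share cannot be set against that of all tested genes. Some markers, such as C1qc, reached the mean needed for testing only through the unstimulated labelled libraries, so they could only come out higher. C1qc had 197 and 41.4 normalized counts there and at most 0.84 in any other library. Lyz2 (34.5 and 35.5 in WT, 375 and 138 in labelled libraries) and Vcam1 (73.4 and 91.6, 3027 and 447) were also called and were well above 0 in WT. Leaving out labelled replicate 1 still leaves higher myeloid and plasma cell sums in the labelled group. The plot of marker sums shows each library.

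**Figure D1:**
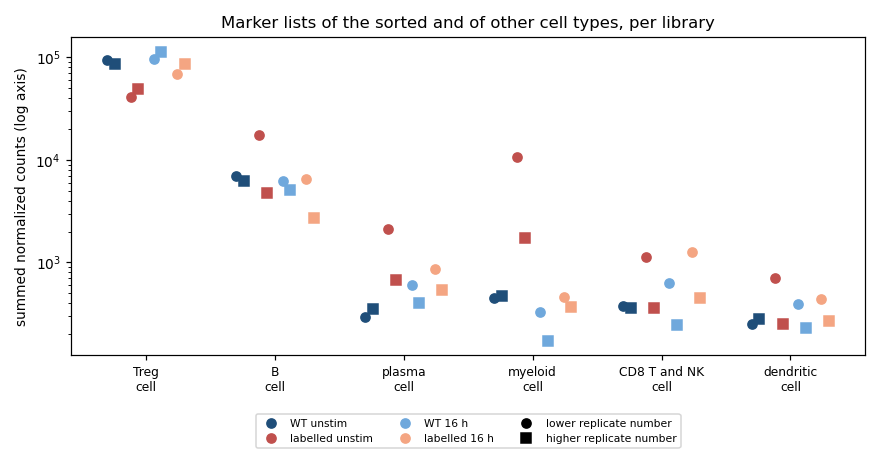
Summed normalized counts (log axis) of markers of Treg cells and of other cell types in each library, coloured by group, with circles for the lower and squares for the higher replicate number. Among unstimulated libraries, labelled replicate 1 was highest for every non-Treg list, with a myeloid sum of 10710.

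The first question was whether the antagonists of the Tfr programme differ between genotypes in unstimulated cells. Prdm1 was 6.67-fold lower in labelled than in WT libraries and Maf was 3.33-fold lower, whereas Bcl6 did not pass the test. In all, 2 of the 9 members were called lower and 0 higher, beside 3.35% of all tested genes called lower and 1.38% called higher. The study names Prdm1 and other genes of the programme from these same libraries, so their direction is not independent evidence.

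Prdm1 (chr10:44437174-44528558 on GRCm38.p6, as all gene positions here) encodes Blimp-1, a repressor that acts in effector T cells and plasma cells. It had 2050.4 and 1637 normalized counts in WT and 382 and 196 in labelled unstimulated libraries. Both labelled libraries lay far below both WT libraries. On the log2 scale the difference was -2.74 (standard error 0.33, limma adjusted p = 0.00538), which ranked Prdm1 at place 21 of the 15419 genes by p. Plasma cells express Prdm1, and the difference was larger, at -3.22, without labelled replicate 1. That library held the highest plasma cell sum, most of it Jchain. The part of plasma cell RNA in the values was not tested. The call was lost without WT replicate 3 (-2.58, limma adjusted p = 0.129) or WT replicate 4 (-2.90, limma adjusted p = 0.0518), with adjusted p from 1.046e-12 to 0.129 over all alternatives.

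Bcl6 (chr16:23965050-23988866) is the repressor that defines follicular T cells. Its normalized counts were 1345 and 1483 in WT and 561 and 1393 in labelled unstimulated libraries. The groups overlapped, since labelled replicate 2 lay between the WT libraries and labelled replicate 1 far below them. The log2 fold change of -0.68 (95% interval -1.55 to 0.20, limma adjusted p = 0.350) depended on which of them was used. It was -0.02 without labelled replicate 1 and -1.33 without labelled replicate 2, the latter called (limma adjusted p = 0.0406, range over the alternatives 0.0406 to 0.980). The low Bcl6 value was that of the library with the high myeloid and B cell sums, and their part in it was not tested.

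After 16 h of stimulation, Prdm1 had 2187 and 2121 normalized counts in WT and 758 and 454 in labelled libraries. The groups again did not overlap. The log2 fold change was -1.87 (standard error 0.33), just missing the threshold of the test with a limma adjusted p of 0.0537. It was called in 7 of the 18 alternatives, DESeq2 on the recovered reads, the replicate block and the fits without either unstimulated labelled library among them, and without labelled replicate 1 of the stimulated cells it was -2.24 (limma adjusted p = 0.0124, range over the alternatives 8.337e-06 to 0.380). Bcl6 had 147 and 98.0 normalized counts in WT and 237 and 168 in labelled libraries, the labelled values lying above both WT values. Its log2 fold change of 0.73 (95% interval -0.15 to 1.60, limma adjusted p = 0.459) did not pass the test.

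Within a library, the ratio of Bcl6 to Prdm1 puts the antagonists side by side, and any scaling factor cancels except through the pseudocount of 1. Its level depends on the lengths of both transcripts, so only differences between libraries are read. The log2 ratio was -0.61 and -0.14 in WT and 0.55 and 2.82 in labelled unstimulated libraries. It was -3.88 and -4.42 in WT and -1.67 and -1.43 in labelled stimulated libraries. In both states each labelled library exceeded each WT library, by 4.18-fold on average in unstimulated and 6.08-fold in stimulated cells. In unstimulated cells both genes had negative log2 fold changes (-0.68 for Bcl6, not called, and -2.74 for Prdm1). The higher ratio there goes with the larger fall of Prdm1 and not with more Bcl6. Since Tfr cells are described as expressing both genes, the ratio is not read as a measure of the follicular state. An exact permutation test of the ratio, 2-sided, gave p = 0.333 in each state, the smallest that 2 against 2 libraries allow. Permuting genotypes within each state over all 8 libraries gave an exact p = 0.0556 for the mean log2 difference of 2.33, the smallest that 36 assignments allow, so that this design could not reach 0.05. Without labelled replicate 2 the difference of the unstimulated cells was 0.93 instead of 2.06, and without labelled replicate 1 it was 3.20.

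**Figure D2:**
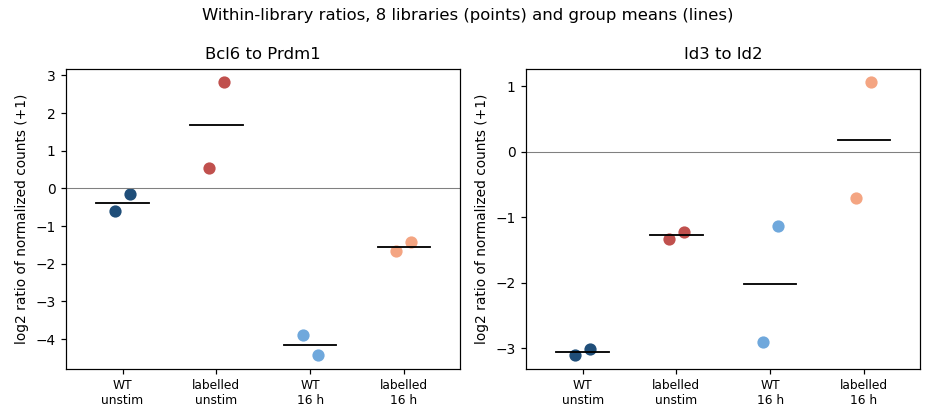
Log2 ratios of normalized counts (each + 1) of Bcl6 to Prdm1 and of Id3 to Id2 in each library (points) with group means (lines). In both states the labelled libraries lay above the WT libraries, by 2.06 and 2.60 for Bcl6 to Prdm1 and by 1.78 and 2.19 for Id3 to Id2.

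Id2 (chr12:25093799-25096092) and Id3 (chr4:136143822-136145392) encode inhibitors of E proteins, with Id2 typical of effector cells and Id3 of naive and follicular cells. Id3 had 104 and 87.2 normalized counts in WT and 244 and 168 in labelled unstimulated libraries. The stimulated libraries held 95.1 and 171 in WT and 231 and 366 in labelled libraries. Every labelled library exceeded every WT library of its state. The log2 fold changes of 1.09 (standard error 0.37, limma adjusted p = 0.123) and 1.18 (standard error 0.37, limma adjusted p = 0.182) did not pass the test in either state alone. Without labelled replicate 1 the value in unstimulated cells was 0.82.

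Id2 had 897 and 712 normalized counts in WT and 614 and 394 in labelled unstimulated libraries. Stimulated cells had 716 and 377 in WT and 379 and 175 in labelled libraries. The groups were apart in unstimulated cells and touched in stimulated cells, where labelled replicate 1 lay just above WT replicate 2. The log2 fold changes were -0.70 (limma adjusted p = 0.352) and -1.01 (limma adjusted p = 0.301), neither of them called. Without labelled replicate 1 they were -1.02 and -1.57, and without labelled replicate 2 -0.38 and -0.45. The log2 ratio of Id3 to Id2 was -3.10 and -3.02 in WT and -1.33 and -1.22 in labelled unstimulated libraries. In stimulated cells it was -2.90 and -1.14 in WT and -0.71 and 1.06 in labelled libraries. The ratio was thus 3.44-fold higher in unstimulated and 4.57-fold higher in stimulated labelled libraries, without overlap in either state. The pairs of unstimulated libraries differed by little from each other, whereas both stimulated pairs were wide. The exact permutation tests gave the same p as for Bcl6 to Prdm1, 0.333 in each state and 0.0556 over both, again the smallest possible.

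Maf (chr8:115703253-115706894) encodes c-Maf, a factor of Il10 and of follicular T cells. It had 3137 and 3587 normalized counts in WT and 1518 and 668 in labelled unstimulated libraries. With stimulation the values were 3177 and 3084 in WT and 1299 and 607 in labelled libraries. The WT libraries were close to each other in both states, the labelled libraries differed by more than 2-fold between replicates, and all of them lay below WT. Maf was called in unstimulated cells (log2 fold change -1.73, standard error 0.40, limma adjusted p = 0.0381). It was not called in stimulated cells, although the value was as large (-1.82, limma adjusted p = 0.0832, and 4.860e-04 to 0.524 over its alternatives). In 5 of 18 alternatives it was called there: with DESeq2, with the replicate block, without either unstimulated labelled library, and without stimulated labelled replicate 1.

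The call of Maf in unstimulated cells was lost in 10 of 17 alternatives, with adjusted p from 6.748e-04 to 0.281. Among them were edgeR, rescaling to equal totals or upper quartiles, and leaving out labelled replicate 2 (-1.14, limma adjusted p = 0.0821), WT replicate 3 or 4 (-1.83 and -1.64) or either stimulated WT library, whereas without labelled replicate 1 it was -2.33. Macrophages express Maf, and the larger of the labelled values was that of the library with the high myeloid sum, whose part in it was not tested. In stimulated cells, where the myeloid sums were 173 to 459.8 normalized counts in all 4 libraries, the Maf difference was -2.36 without labelled replicate 1 and -1.27 without labelled replicate 2.

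Tox (chr4:6686353-6991557), a factor of the HMG-box family that is high in follicular and in chronically stimulated T cells, had 4375 and 4845 normalized counts in WT and 2529 and 3239 in labelled unstimulated libraries. Its values in stimulated cells were 1927 and 2087 in WT and 1530.2 and 1865 in labelled libraries. The labelled libraries lay below the WT libraries in both states, with a small gap after stimulation. The log2 fold changes of -0.69 (standard error 0.19, limma adjusted p = 0.0729) and -0.25 (standard error 0.19, limma adjusted p = 0.629) did not pass the test, but DESeq2 called Tox lower in unstimulated cells, and so did limma without labelled replicate 2 (-0.86). Without labelled replicate 1 it was -0.51 and not called.

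Cxcr5 (chr9:44511787-44526444), the receptor for the follicular chemokine CXCL13, had 228 and 245 normalized counts in WT and 163 and 93.5 in labelled unstimulated libraries. Stimulated libraries showed 180.0 and 160.2 in WT and 129 and 41.4 in labelled libraries. Both groups were apart in both states, and the labelled pairs were wide, 1.74-fold and 3.13-fold between replicates. The log2 fold changes of -0.93 (standard error 0.48, limma adjusted p = 0.290) and -1.20 (standard error 0.48, limma adjusted p = 0.300) were not called. B cells express Cxcr5, and in both states the labelled library with the higher B cell sum (17640 and 6455 against 4732 and 2711 normalized counts) also had the higher Cxcr5. Without that library the difference was -1.33 in unstimulated cells and -2.01 in stimulated cells, the latter called (limma adjusted p = 0.0271, range over the alternatives 0.0271 to 1.0), and without the other labelled library it was -0.54 and -0.39. The part of B cell RNA in these values was not tested.

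Sh2d1a (chrX:42502565-42522097) and Slamf6 (chr1:171917458-171948958) act at the contact with B cells, and neither was called. Sh2d1a had 476 and 493 normalized counts in WT and 363 and 258 in labelled unstimulated libraries, which lay below (log2 fold change -0.66, limma adjusted p = 0.171). The corresponding values in stimulated cells were 489 and 390 in WT and 462 and 343 in labelled libraries, which overlapped (-0.13, 95% interval -0.71 to 0.45). Slamf6 had 3612 and 3819 normalized counts in WT and 3729 and 2666 in labelled unstimulated libraries. It had 2996 and 2931 against 2859 and 2770.0 after stimulation. The log2 fold changes of Slamf6 were -0.24 (95% interval -0.66 to 0.19, limma adjusted p = 0.510) and -0.07 (95% interval -0.50 to 0.35, limma adjusted p = 0.910), so that its interval in stimulated cells excluded a 1.5-fold change in either direction. Without labelled replicate 1 of the unstimulated cells, the values there were -0.91 for Sh2d1a and -0.48 for Slamf6, neither called.

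**Figure D3:**
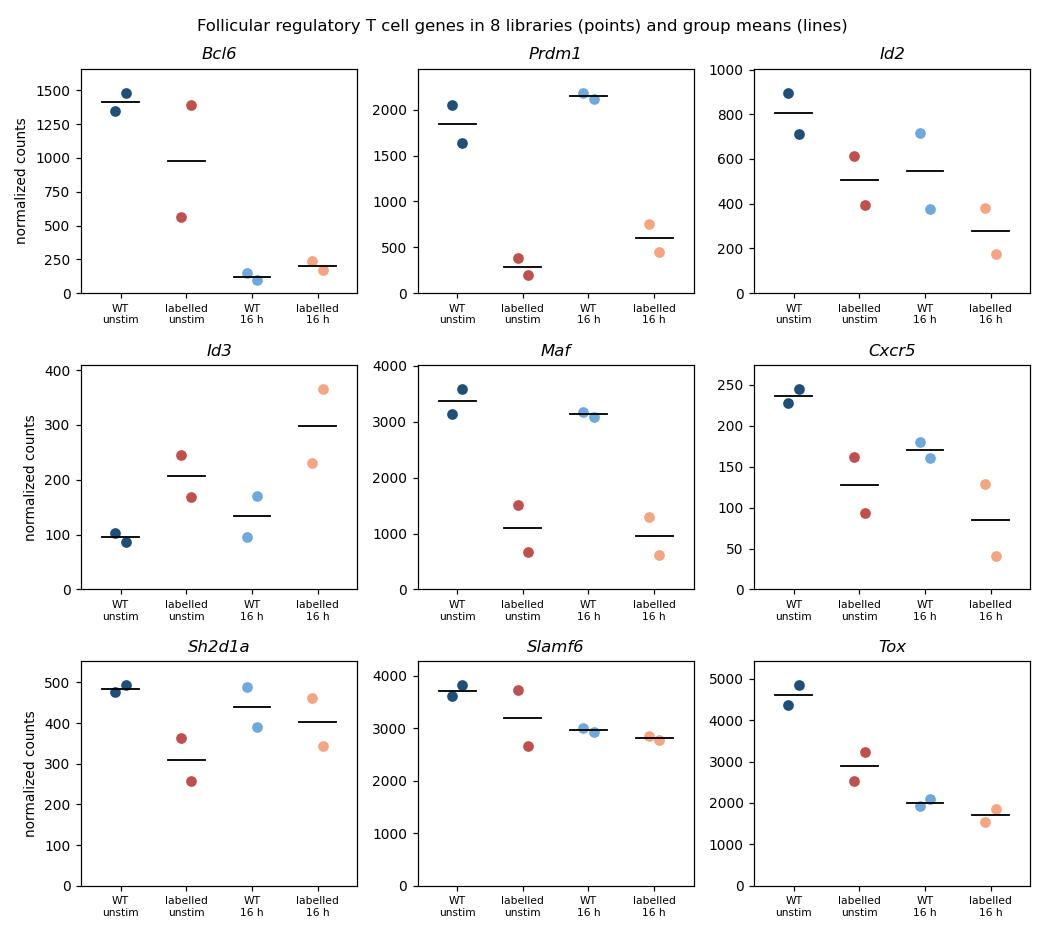
Normalized counts of the 9 genes in each library (points) with group means (lines), by genotype and stimulation. Prdm1 and Maf lay lower in labelled libraries in both states, and Bcl6 and Tox were lower after stimulation in both genotypes.

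Counted over the members, both labelled libraries lay below both WT libraries for 6 of 9 genes in unstimulated and 5 of 9 in stimulated cells, beside 27.1% and 23.1% of all tested genes. They lay above WT for 1 gene (Id3) and 2 genes (Id3 and Bcl6), beside 26.5% and 24.3%. The median log2 fold change of the members was -0.69 in unstimulated cells, against -0.01 for all tested genes, and -0.25 in stimulated cells, against 0.02. In stimulated cells 0 of 9 members were called, beside 0.11% of all genes called lower and 0.162% called higher. At an unadjusted p under 0.05 and over 1.5-fold, 4 members were lower and 1 higher in stimulated cells, beside 6.95% and 5.6% of all genes. In unstimulated cells 4 were lower and 1 higher too, beside 11.1% and 8.68%. DESeq2 called 2 of the members lower in stimulated cells (Prdm1 and Maf), beside 299 of all tested genes lower and 251 higher. With edgeR 0 members were called, beside 0 of all tested genes lower and 1 higher.

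Averaging the genotype difference over both states in the same model, a contrast chosen after seeing the data, used 4 labelled against 4 WT libraries. Prdm1 (log2 fold change -2.31, standard error 0.23, limma adjusted p = 0.00140) and Maf (-1.78, standard error 0.28, limma adjusted p = 0.00617) were called lower, and Id3 (1.13, standard error 0.26, limma adjusted p = 0.0270) was called higher. That made 2 members lower and 1 higher, beside 5.45% and 2.89% of all tested genes. Prdm1 and Maf were called in each of the 16 alternatives, whereas Id3 lost its call in 6 of them. It lost it when every gene above 0 was tested, without WT replicate 3 or 4 or labelled replicate 1 of the unstimulated cells, and without WT replicate 1 or labelled replicate 2 of the stimulated cells (limma adjusted p = 0.0548 to 0.106). Its log2 fold change stayed between 0.92 and 1.34. Bcl6, with opposite signs in the 2 states, averaged 0.03 (95% interval -0.59 to 0.65).

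**Figure D4:**
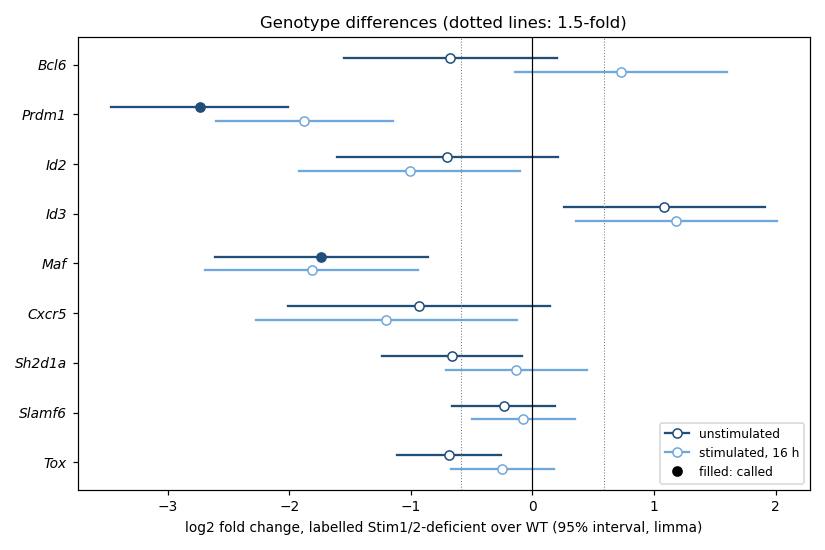
Log2 fold change of labelled over WT libraries with its 95% interval from limma for the 9 genes, in unstimulated (dark) and stimulated (light) cells. Filled points were called (Prdm1 and Maf in unstimulated cells), and dotted lines mark 1.5-fold.

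An interaction term asked whether genotype differences depended on stimulation. None of the members was called, nor was any of the 15419 genes with limma, while 543 genes (3.52%) were lower and 704 (4.57%) higher at an unadjusted p under 0.05 and over 1.5-fold. DESeq2 called 50 genes and edgeR 0. Bcl6 came nearest among the members. Its genotype difference was 1.40 higher on the log2 scale in stimulated than in unstimulated cells (95% interval 0.17 to 2.64, limma adjusted p = 0.569). That value was 0.75 without labelled replicate 1 and 2.06 without labelled replicate 2 of the unstimulated cells, with adjusted p from 0.0581 to 0.999 over the alternatives.

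**Figure D5:**
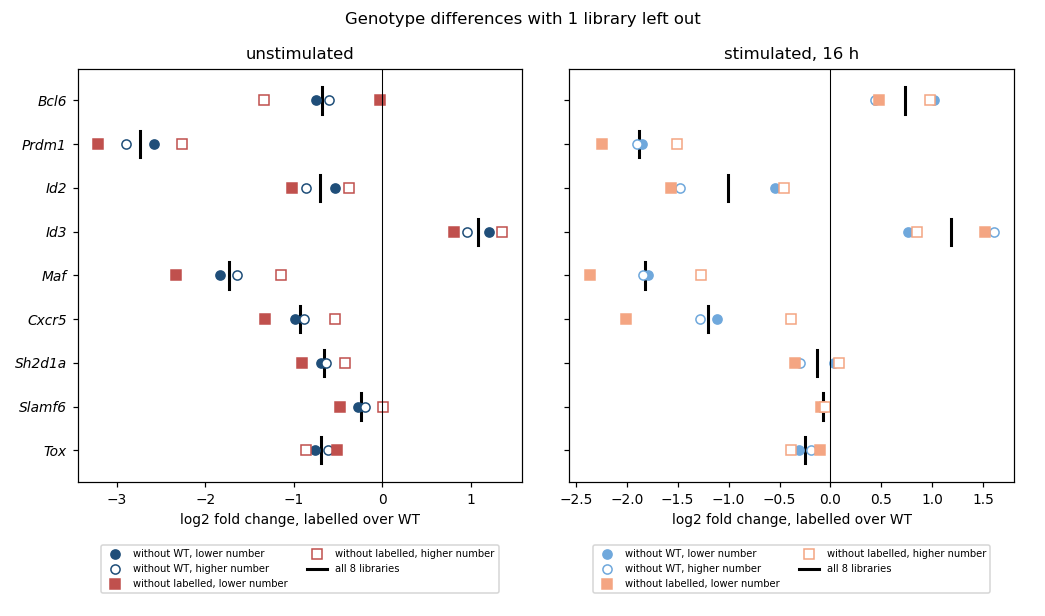
Log2 fold change of labelled over WT libraries for each gene with all 8 libraries (black lines) and with 1 library of the comparison left out (circles, a WT library; squares, a labelled library). The Bcl6 difference in unstimulated cells moved from -0.02 to -1.33, depending on which labelled library was left out, while Prdm1 stayed between -3.22 and -2.26.

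Stimulation was compared within each genotype, using the same libraries as the comparisons above. Bcl6 fell in both genotypes, 11.7-fold in WT cells (log2 fold change -3.54, standard error 0.39, limma adjusted p = 7.075e-04) and 4.41-fold in labelled cells (-2.14, standard error 0.39, limma adjusted p = 0.00445). Every stimulated library, at 98.0 to 237 normalized counts, lay below every unstimulated library, at 561 to 1483. Tox fell 2.30-fold in WT cells (limma adjusted p = 0.00288) and 1.69-fold in labelled cells (limma adjusted p = 0.0171). In labelled cells Prdm1 rose 2.14-fold (log2 fold change 1.10, standard error 0.33, limma adjusted p = 0.0343), from 196 and 382 to 454 and 758 normalized counts. In WT cells Prdm1 had a log2 fold change of 0.23 (95% interval -0.50 to 0.96, limma adjusted p = 0.642). The interaction for Prdm1, 0.86, had a limma adjusted p of 0.647.

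With stimulation, 2 members were thus called lower in WT cells, beside 13.1% of all tested genes lower and 10.2% higher. In labelled cells 2 were called lower and 1 higher, beside 12.0% and 13.0%. Without overlap of the groups, 4 members lay lower and 1 higher in stimulated WT cells (36.0% and 35.0% of all genes), and 3 lower and 1 higher in stimulated labelled cells (30.6% and 30.8%). Bcl6 kept its call in each alternative and Tox did so in WT cells. In labelled cells Tox lost its call in 4 of 18 alternatives, with log2 fold changes of -0.58 without unstimulated labelled replicate 2 and -0.37 with equal totals, and the rise of Prdm1 lost it in 9 of 18, falling to 0.62 without that library and to 0.73 without stimulated labelled replicate 1, and losing the call also without any 1 of the 4 WT libraries. Id2, Id3, Maf, Cxcr5, Sh2d1a and Slamf6 were called in neither genotype, with log2 fold changes from -0.93 for Id2 in labelled cells to 0.52 for Id3 in labelled cells. Rescaling libraries to equal totals moved the median of all genes from 0.01 to 0.52 in WT cells and from -0.03 to 0.35 in labelled cells, and turned Maf and Slamf6 from slightly lower to slightly higher in both genotypes and Cxcr5 and Sh2d1a in WT cells.

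Further genes of the follicular programme were listed with earlier results of these data known. Of 28 such genes 27 were tested, and 11 were called lower and 0 higher in unstimulated labelled libraries, beside 3.35% and 1.38% of all tested genes, with a median log2 fold change of -0.98 against -0.01 for all genes. These 11 were the receptors Pdcd1, Icos, Tigit, Ctla4, Tnfrsf4, Tnfrsf18 and Il1r2, the cytokine Il10, and the transcription factors Irf4, Batf and Nfatc1. The study also names Ctla4 as a marker of Treg cells and Irf4 and Batf as factors of effector Treg cells. The list is therefore not particular to follicular cells. Icos, the costimulator needed for follicular T cells, had 14389 and 13756 normalized counts in WT and 1701 and 2098 in labelled libraries (log2 fold change -2.90, limma adjusted p = 1.248e-04). Pdcd1, which encodes PD-1, had 302 and 260.0 in WT and 52.4 and 69.5 in labelled libraries (-2.20, limma adjusted p = 0.0104). Il10 had 885 and 923 against 50.3 and 56.1 (-4.06, limma adjusted p = 0.00106). None of the labelled libraries overlapped WT for these genes. Without WT replicate 3 or WT replicate 4, 2 of the 11 were called (Icos and Il10), and these kept their call in each of 17 alternatives. Without labelled replicate 1 the log2 fold changes were -2.74 for Icos and -3.99 for Il10. The study names several of them from these libraries, so that the direction of the list is not independent evidence.

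In stimulated cells, Il10 (log2 fold change -2.34, limma adjusted p = 0.0393) and Batf (-1.76, limma adjusted p = 0.0393) were the called genes of that list, both lower, beside 0.11% of all tested genes, with a median of -0.42. Each lost its call in 9 of 18 alternatives, edgeR, every gene above 0, the 4 libraries alone, a pseudocount of 0.1, and the fits without any 1 WT library or without stimulated labelled replicate 2, with adjusted p up to 0.362. The values without that labelled library were -1.70 for Il10 and -1.46 for Batf. Icos was at 13802 and 14688 normalized counts in WT and 8479 and 6844 in labelled libraries (-0.90, limma adjusted p = 0.0661). Tcf7 and Lef1, factors of naive and of follicular T cells, had log2 fold changes of 0.62 (limma adjusted p = 0.0709) and 0.99 (limma adjusted p = 0.0531) in unstimulated cells, neither called. Both were called higher there with DESeq2, equal totals and equal upper quartiles, but not with edgeR or the 4 libraries alone. Lef1 was also called higher in the genotype difference averaged over both states. Il21, the cytokine of follicular helper T cells, had 60.4 and 76.8 normalized counts in WT and 76.55 and 12.0 in labelled unstimulated libraries. After stimulation it had 149 and 153 in WT and 143 and 10.1 in labelled libraries. The low value was that of labelled replicate 2 in both states, and Il21 was called in neither.

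Of the families around the members, 1 gene was called higher and 1 lower in unstimulated cells (1.38% and 3.35% of all tested genes), and 0 in stimulated cells (0.162% and 0.11%) by limma. Among SLAM receptors and SAP adaptors 9 of 12 were tested, and Prkcq, the kinase PKC-theta, was called higher in unstimulated labelled libraries, with 3176 and 3095 normalized counts in WT libraries against 6329 and 5734 (log2 fold change 0.94, limma adjusted p = 0.0252). Its call was lost in 6 of 17 alternatives, among them the fits without any 1 of the 4 WT libraries, with values from 0.87 to 1.10. Of the E proteins and other Id proteins 4 of 5 were tested and 0 called, Tcf3 and Tcf12 among them (medians 0.10 and -0.02). Of 8 relatives of Tox and Maf 6 were tested, and Tox2, a follicular factor like Tox, was called lower in unstimulated labelled libraries. It had 173 and 145 normalized counts in WT libraries against 48.2 and 25.4 (-2.14, limma adjusted p = 0.0336). That call was lost in 8 of 16 alternatives, edgeR and the fits without any 1 WT library or without labelled replicate 2 among them.

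Genes with the pattern most like that of a member were sought among 9147 genes averaging at least 100 normalized counts, by Pearson's r of log2 values over the 8 libraries. These values describe libraries that share groups. Chd7, Zfp317 and Zbtb10 (r = 0.99 each) were most like Bcl6, and Tox was the member most like it (r = 0.87). Ticrr, Haspin and Pola1 (r = 0.99 each), genes of DNA replication and mitosis, were most like Prdm1, whose nearest member was Maf (r = 0.90). Il23r (r = 0.99) and Myadm (r = 0.98) were most like Cxcr5, and Id2 was its nearest member (r = 0.93).

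RefSeq places other genes over 4 of the members: Gm31527 over Bcl6, Bcl9l (mean 310.0 normalized counts) over Cxcr5, Gm37065 (33.9) over Slamf6 and Gm11802 (125) over Tox. The labels name a stranded kit and the methods another, and whether strand was used in counting is not given in the sources used here.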

How the data were processed

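RNA of mouse Treg cells was sequenced in 8 libraries, which were grouped by the genotype and stimulation of their labels. According to the methods, the authors aligned reads to NCBIM37 with Bowtie, removed duplicates with Picard, counted them over genes by HTSeq and used DESeq2, whereas the submitters' processing notes name bcl2fastq 1.8.4, STAR 2.7, DESeq2 and mm10. Of the gene symbols, 66.9% were in RefSeq of GRCm38.p6 and 54.9% in the NCBIM37 annotation, so positions and promoters were taken from the former. The deposited values (unit: signal) are gene counts scaled by the authors with a size factor for each library. Whole reads were recovered from 100% of them, and there were 0 unused columns.

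Genes averaging at least 10 normalized counts were fitted with limma 3.58.1 (trend) in R 4.3.3, 2-sided, on log2 values with a pseudocount of 1, with 1 spread for the 4 groups. Fold changes are on that scale. Ratios were tested by exact permutation (scipy 1.17.1). Alternatives were pseudocounts of 0.1 and 5, every gene above 0, a mean of at least 100, equal totals or upper quartiles, the recovered reads in DESeq2 1.42.0 and in the quasi-likelihood test of edgeR 4.0.16, the 4 libraries of a contrast, a replicate block, and each library left out. The members and lists were chosen with earlier results of these data known. All members are named, from each list the genes called in a genotype contrast, and further list genes were named after their values were seen. Some listed genes are not reported here. Protein sequences of Id2 and Id3 were not used here. Scripts were tested on simulated data.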

Additional observations from a re-analysis of the deposited data

How the results depend on the processing

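Of 918 recomputed differences of single members, 832 kept their direction and their side of the threshold, 31 lost a call, 22 gained one and 33 changed sign. In unstimulated cells, 1 member (Prdm1) in place of 2 was called with every gene above 0, equal totals, equal upper quartiles, edgeR or the 4 libraries alone, and 0 to 3 with 1 library left out, 0 without either WT library. All tested genes called there numbered 730, against 362 with every gene above 0, 484 with edgeR, 1338 with DESeq2, 338 with the 4 libraries and 8 to 1298 with 1 library left out, lowest without WT replicate 3 and highest without labelled replicate 2. Calls were 70.8% lower, 59.4% with equal totals and 53.7% with equal upper quartiles, which raised the median of all genes from -0.01 to 0.11 and 0.15.

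In stimulated cells 0 members were called, against 1 with a pseudocount of 5 or a mean of at least 100 (Prdm1), 2 with DESeq2 (Prdm1 and Maf) and 0 to 3 with 1 library left out, 3 without labelled replicate 1. All genes called numbered 42, against 8 and 74 with pseudocounts of 0.1 and 5, 82 with a mean of at least 100, 1 with every gene above 0, edgeR or the 4 libraries, 550 with DESeq2 and 0 to 762 with 1 library left out, highest without labelled replicate 1. The replicate block called 2 members (Prdm1 and Maf) and 296 genes. It could be fitted where groups share replicate numbers, which the unstimulated groups do not, and for stimulation in labelled cells it called 4 members (Bcl6, Prdm1, Id2 and Tox) in place of 3. Deviations correlated at 0.167 and 0.257 over the 2 pairs, and the labels give the numbers no meaning.

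For stimulation in WT cells, 971 to 4276 of all genes were called with 1 library left out, against 3593. With equal totals 18.6% of the calls were lower in place of 56.0%, and in labelled cells 22.1% in place of 48.2%. There the 4 libraries alone called 1 member and 1752 genes, against 3 and 3852, and 1 to 3 members were called with 1 library left out, 1 without unstimulated labelled replicate 2. For the interaction 0 genes were called, against 50 with DESeq2 and 0 to 196 with 1 library left out, highest without unstimulated labelled replicate 2. For the genotype difference averaged over both states, 819 genes were called with every gene above 0, against 1285, and 180 to 1868 with 1 library left out, while 2 to 5 members were called, 5 without stimulated labelled replicate 1. Equal upper quartiles gave 54.2% lower calls in place of 65.4%. The causes were not tested.

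Sign changes were all in differences that were not called. With equal totals, log2 values with stimulation became 0.42 (Maf), 0.044 (Cxcr5), 0.37 (Sh2d1a) and 0.19 (Slamf6) in WT cells and 0.21 (Maf) and 0.23 (Slamf6) in labelled cells. The interaction of Id3 became -0.030 with equal totals and -0.055 with equal upper quartiles. With 1 library left out, ranges that crossed 0 were -0.48 to 0.0058 for Slamf6 by genotype in unstimulated cells and -0.35 to 0.082 for Sh2d1a in stimulated cells. With stimulation they were -0.31 to 0.014 for Sh2d1a in WT cells, and in labelled cells -0.77 to 0.41 for Maf, -1.55 to 0.069 for Cxcr5 and -0.41 to 0.078 for Slamf6. For the interaction they were -0.87 to 0.24 for Id2, -0.32 to 0.52 for Id3, -0.67 to 0.51 for Maf, -1.08 to 0.54 for Cxcr5 and -0.080 to 0.40 for Slamf6, and for the averaged genotype difference -0.30 to 0.35 for Bcl6. The ratio differences stayed positive with both other pseudocounts, and groups that do not overlap cannot turn when a library is left out. Members had at least 49 reads per library.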
